A study of Mus musculus with 2 samples.

Results

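The 10 keratin genes described here encode structural proteins of the hair shaft and of the sheaths around its root. *Krt25*, *Krt27*, *Krt28*, *Krt71* and *Krt73* belong to the inner root sheath, *Krt75* to the companion layer, and *Krt31*, *Krt32*, *Krt82* and *Krt86* to the shaft itself. They were taken as every probe, other than controls, whose gene name in the array files is one of these 10, which gave 11 probes out of 55679 and 10 genes out of 21245 with a probe. *Krt28* has 2 probes and each other gene has 1, and every one of these probes was spotted once per array.

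Gene expression was compared in the incisor of wild-type mice and of *Sox21* KO mice, in which the gene for the transcription factor Sox21 is disrupted, at postnatal day 0 by the sample labels. The wild-type mice were C57BL/6J by the study's methods, which give an age a day later than the labels and do not describe the strain of the KO line. The sample labels call the tissue incisor, while the series description names both ameloblasts and whole tooth germs and the methods name tooth germs, so how much tissue around the tooth was taken is not known. RNA of each genotype was hybridized to 1 Agilent array, and neither the labels nor the methods say how many mice contributed to it. The comparison asks whether keratins of the hair follicle were present at other levels in the *Sox21* KO incisor, and with 1 array per genotype no difference given here has a replicate check or a test.

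A keratin filament is built from pairs of a type I and a type II chain. In the hair follicle each layer uses its own pairs, with soft keratins in the inner root sheath, which moulds the growing hair, and sulfur-rich hard keratins in the cortex and cuticle of the shaft. Tooth and hair follicle both arise from an epithelial placode, and keratins of the follicle, *Krt75* among them, are also known from the epithelium that forms enamel.

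The sequences of 3 probes are shown because the comparison rests on what they detect. The *Krt32* probe gave the widest difference between the arrays, the *Krt27* probe the widest among the inner root sheath keratins measured on both arrays, and the dimmer *Krt28* probe is the one most like a probe of another keratin. The *Krt32* probe lies at chr11:99947991-99948050 and the dimmer *Krt28* probe at chr11:99234074-99234133, both in the mm9 coordinates of the files. The 60 bases of the *Krt27* probe are spread over 671 bases of the genome, chr11:99207158-99207828, so it crosses a splice junction. All 3 are written in lower case because no part of them was singled out.
Krt32 probe: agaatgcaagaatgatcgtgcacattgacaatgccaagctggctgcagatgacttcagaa
Krt27 probe: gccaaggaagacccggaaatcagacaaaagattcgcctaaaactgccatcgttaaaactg
Krt28 dimmer probe: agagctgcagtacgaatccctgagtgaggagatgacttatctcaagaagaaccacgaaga

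Keratins are close in sequence, so each probe of the 10 genes was set against every other probe on the array. The longest run of bases shared with a probe of any other gene was 13 to 16 bases, and for the *Krt32* probe it was 16, shared with a probe of *Gk5*, which is no keratin. Aligned without gaps over at least 40 bases, the dimmer *Krt28* probe matched 41 of 58 bases of a *Krt42* probe, and the other 10 probes matched 23 to 31 bases of their nearest keratin probe. The *Krt32* probe matched its nearest keratin probe, one of *Krt8*, at 27 of 60 bases. These counts cover probes on the array and not the transcripts themselves, so cross-hybridization to a transcript outside the probed stretches was not tested. In the same mm9 coordinates, the other type I probes lie at chr11:99177867-99178575 for *Krt25*, which also crosses a splice junction, chr11:99226329-99226388 for the brighter probe of *Krt28* and chr11:99907960-99908019 for *Krt31*. The type II probes lie at chr15:101310355-101310414 for *Krt86*, chr15:101371660-101371719 for *Krt82*, chr15:101393774-101393833 for *Krt75*, chr15:101564426-101564485 for *Krt71* and chr15:101623743-101623802 for *Krt73*. The letters AATAAA, the usual polyadenylation signal, are in 3 of the 11 probes, those of *Krt73*, *Krt31* and *Krt86*, and in 10.1% of all 55681 probe sequences.

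The signals below are processed intensities, from which the scanner software had removed background, given with the error that the same software estimates for the spot. Each was divided by the 75th percentile of its array, 268 for wild-type and 276 for KO, and the log2 ratio is *Sox21* KO minus wild-type. A gene is called measured where the software marked its probe as well above background on both arrays, and a 2-fold difference is used as the threshold. The targeted gene, *Sox21*, had signals of 1362 and 659 at its brighter probe and 286 and 103 at the other, log2 ratios of -1.09 and -1.51, and both probes were still well above background on the KO array. Both arrays were on the same slide, with 49.7% and 50.4% of spots well above background and 0 saturated. Spots of the same probe differed in their log2 ratio by an SD of 0.09, the median of 268 probes spotted repeatedly, which covers the array and not the animals.

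Of the 10 keratins, 8 were measured on both arrays, against 65.0% of all 21245 genes. *Krt32* was higher on the KO array by more than 2-fold, which held for 0.739% of the 13804 genes measured, and 0 of the 8 were lower by 2-fold, against 0.666%. Without regard to size, 3 of the 8 were higher and 5 lower, beside 52.4% and 47.6% of all genes measured. Their median log2 ratio was -0.20, with a range from -0.60 to 2.40, beside a median of 0.01 over all genes measured. *Krt71* was measured in wild-type alone, as were 1.29% of all genes, and *Krt25* on neither array, as were 31.6%. Of the 3 higher ones, *Krt31* and *Krt75* differed by less than the scanner error, and *Krt25* has no direction.

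**Figure D1:**
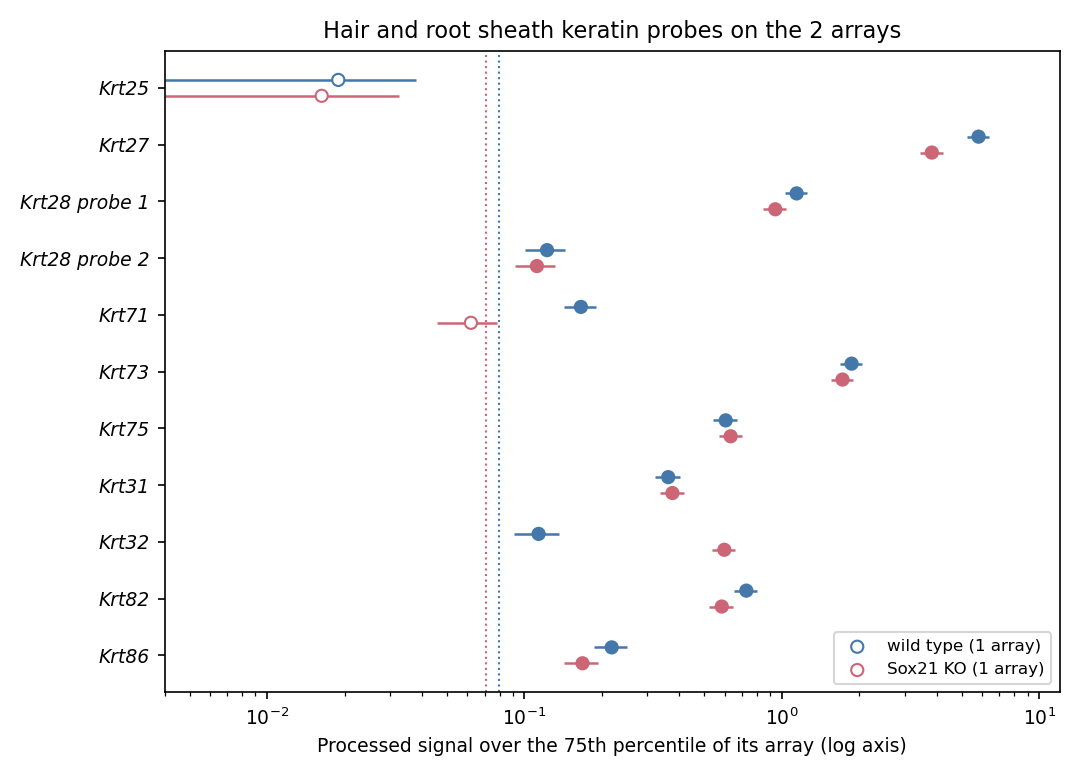
Normalized signal (processed signal divided by the array's 75th percentile), on a log axis, of each of the 11 probes in wild-type (blue) and *Sox21* KO (red). Bars are the scanner software's error, filled points are well above background, open points are not, and the dotted lines mark the lowest value well above background on each array. The pair of *Krt32* points is the widest apart, from 0.113 to 0.597, and the *Krt71* point of the KO array lies under its dotted line.

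The inner root sheath keratins of type I are *Krt25*, *Krt27* and *Krt28*, which pair with the type II keratins of the same layers. *Krt27* had a signal of 1554 ± 156 in wild-type and 1053 ± 105 in *Sox21* KO, or 5.81 and 3.82 after normalization. The wild-type value was the higher by 1.52-fold, a log2 ratio of -0.60 ± 0.20 with the scanner error carried through. Both signals were far above background, and the 2 values lie further apart than their errors. *Krt28* had 305 ± 30.9 and 259.7 ± 26.3 at its brighter probe, a log2 ratio of -0.28 ± 0.21. At the dimmer *Krt28* probe the signals were 32.8 ± 5.83 and 30.8 ± 5.42, a log2 ratio of -0.13 ± 0.36. Both *Krt28* probes thus gave the lower normalized value on the KO array, by less than 2-fold. The difference was slightly more than the scanner error at the brighter probe and less than it at the dimmer. The *Krt25* probe read 5.06 ± 5.08 and 4.49 ± 4.51. Of the 308 negative-control spots on each array, 169 and 190 read as high as *Krt25* or higher, so no level and no ratio is given for it.

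The inner root sheath keratins of type II are *Krt71*, known from mouse mutants with wavy coats, and *Krt73*, a keratin of the sheath's cuticle. *Krt71* had a signal of 44.4 ± 6.28 in wild-type, well above background, and 17.1 ± 4.47 in *Sox21* KO, where the software marked it as positive and significant but not as well above background. Taken against the lowest normalized value well above background on the KO array, *Krt71* was at least 2.34-fold lower there. On the log2 scale this bound is -1.23. It shrank to -0.72 with no background removed and to -0.54 after normexp, both under 2-fold. Normexp is a model-based background correction, run here with a constant of 50 added to every spot. Background left in and an added constant both draw the ratio of a dim probe toward 0. A bound of 2-fold or more on the lower side in *Sox21* KO was found for 0.452% of all 21245 genes, and for 35.0% of the 274 genes that only the wild-type array measured. *Krt73* had 499 ± 50.2 and 474 ± 47.6, which is 1.86 and 1.72 after normalization and a log2 ratio of -0.12 ± 0.20. Its difference was smaller than the scanner error.

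Among the inner root sheath keratins no probe with a ratio or bound had a higher normalized value on the KO array. Of 5 genes, *Krt27*, *Krt28* and *Krt73* were lower by 0.12 to 0.60 on the log2 scale, *Krt73* by less than the scanner error. *Krt71* was lower by its bound, and *Krt25* gave no ratio. The summed normalized signal of the 2 measured type I genes was 6.95 in wild-type and 4.76 in *Sox21* KO, of which *Krt27* made up most. In whole tissue, fewer cells that express these keratins and less RNA per cell cannot be told apart.

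*Krt75*, the type II keratin of the companion layer, which lies between the inner and the outer root sheath, had signals of 162 ± 16.8 and 174 ± 17.9. After normalization these are 0.605 and 0.632, a log2 ratio of 0.06 ± 0.21. The 2 values of *Krt75* differed by less than the scanner error.

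The hair shaft keratins of type I are *Krt31*, of the cortex, and *Krt32*, of the cuticle, the layer of overlapping scales around the shaft. *Krt32* had a signal of 30.4 ± 6.04 in wild-type and 165 ± 17.2 in *Sox21* KO, or 0.113 and 0.597 after normalization. The KO value was the higher by 5.26-fold, which is 2.40 ± 0.32 as a log2 ratio. The wild-type spot was marked as well above background but was dim. Its raw mean intensity was 70.1 over a local background of 27, against 192 over 24 in *Sox21* KO. On the wild-type array 1 of the 308 negative controls read as high, a count that also held for *Krt31*, *Krt71*, *Krt86* and the dimmer *Krt28* probe. The size of the *Krt32* ratio depends on the background step, since it was 1.43 with no background removed and 1.17 after normexp. It stayed above 2-fold under both. *Krt31* had 96.8 ± 10.8 and 104 ± 11.3, a log2 ratio of 0.05 ± 0.22, which is less than its error.

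The hair shaft keratins of type II are *Krt82*, of the cuticle, and *Krt86*, of the cortex. *Krt82* had 195 ± 20.3 and 161 ± 17.0, a log2 ratio of -0.32 ± 0.21. *Krt86* was dimmer, at 58.4 ± 8.33 and 46.3 ± 7.10, with a log2 ratio of -0.38 ± 0.30. Both were lower on the KO array by slightly more than the scanner error and by less than 2-fold, but *Krt86* came to -0.28 when scaled by the median, to -0.27 with no background removed and to -0.20 after normexp, each less than its error. Among the shaft keratins, the normalized value of *Sox21* KO was thus the higher for both type I genes, *Krt31* by less than its error, and the lower for both type II genes. Within the cuticle, the type I keratin *Krt32* had a log2 ratio of 2.40 and the type II keratin *Krt82* one of -0.32. Of this pair *Krt32* alone was past 2-fold.

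**Figure D2:**
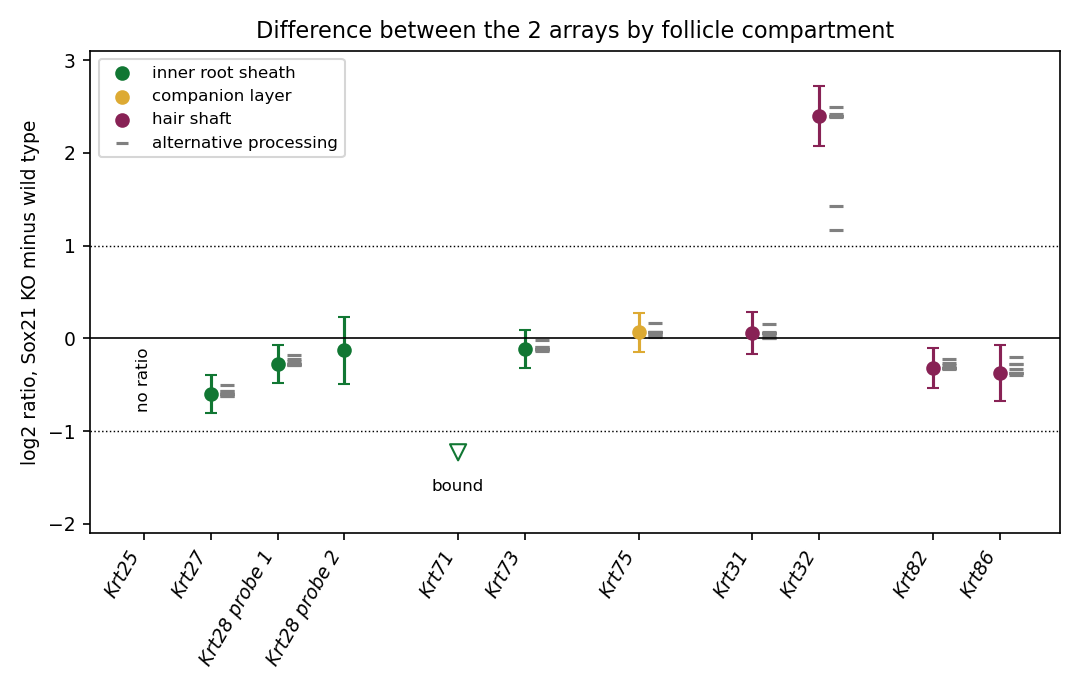
Log2 ratio, *Sox21* KO minus wild-type, of each probe measured on both arrays, coloured by the follicle layer of its gene, with bars for the scanner error and grey ticks for the values under other processing of the same arrays. The triangle is the bound of *Krt71*, *Krt25* has no ratio, and the dotted lines mark a 2-fold difference, which *Krt32* alone exceeds among the measured genes, in every setting drawn.

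Dim probes differ more between arrays, so the 8 measured genes were read against genes of like signal. When the 13804 genes were split into 4 equal groups by mean normalized signal, *Krt31*, *Krt32* and *Krt86* fell in the dimmest. There, 1.48% of genes were higher in *Sox21* KO by 2-fold or more and 1.3% lower, and the central 95% of log2 ratios ran from -0.80 to 0.85. *Krt32*, at 2.40, lay well outside that range, whereas *Krt31* and *Krt86* lay inside it. *Krt28*, *Krt73*, *Krt75* and *Krt82* fell in the next group, with 0.927% higher and 0.695% lower by 2-fold and a range from -0.58 to 0.63, and all 4 lay inside it. *Krt27* fell in the group above that, with 0.348% higher and 0.348% lower by 2-fold and a range from -0.50 to 0.49, and its log2 ratio of -0.60 lay just outside. Inside these ranges lay 6 of the 8 keratins. Of these, *Krt86* was further from 0 than the median size of 0.23 in the dimmest group, and *Krt28* and *Krt82* than the median size of 0.15 in theirs.

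**Figure D3:**
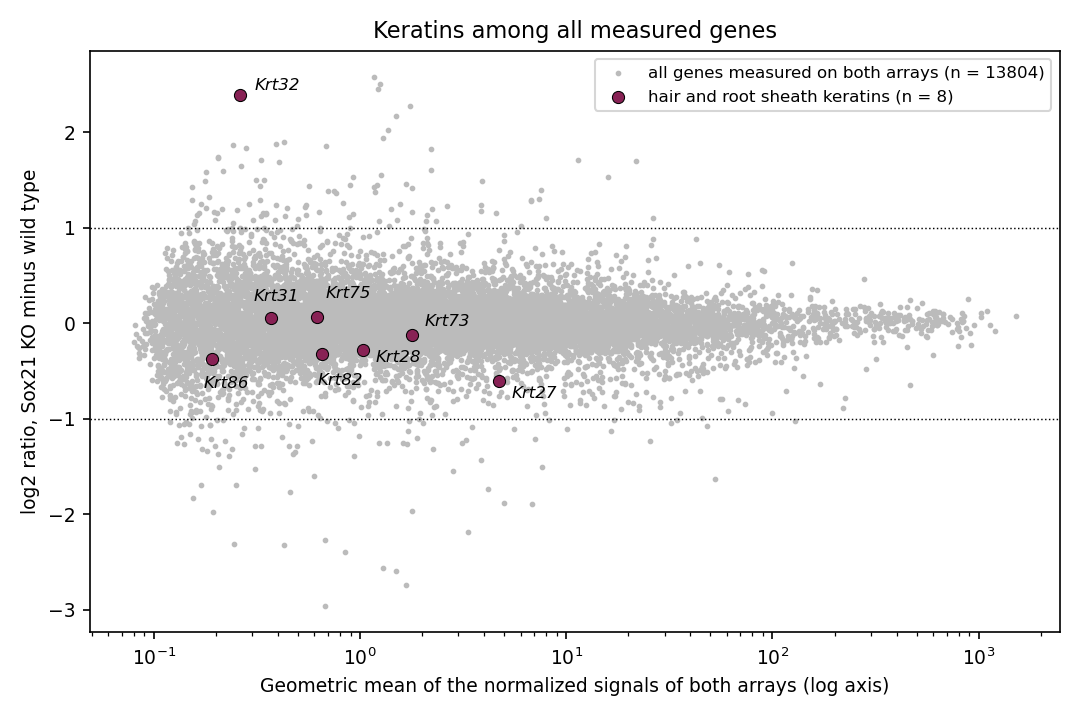
Log2 ratio against the geometric mean of the normalized signals of both arrays, on a log axis, for all 13804 genes measured (grey) and the 8 measured hair and root sheath keratins (dark points). *Krt32* lies above the cloud at the dim end, *Krt27* on its lower edge, and the other 6 within it, and the dotted lines mark 2-fold.

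The 10 genes lie in the 2 keratin clusters of the mouse genome, 5 in that of chromosome 11 and 5 in that of chromosome 15. In RefSeq gene order, *Krt32* lies between *Krt31*, with a log2 ratio of 0.05, and *Krt35*, which was well above background on neither array. The next keratin, *Krt36*, had log2 ratios of 0.39 and 0.11 at its 2 probes. The difference at *Krt32* was thus not seen at *Krt31*, and *Krt35* gave no ratio to compare. *Krt27* and *Krt28* are neighbours, and both were lower on the KO array, whereas *Krt10* beside them had log2 ratios of 0.34 and 1.84 at its 2 probes. On chromosome 15, *Krt71* and *Krt73* lie on either side of *Krt72*, which was well above background on neither array.

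**Figure D4:**
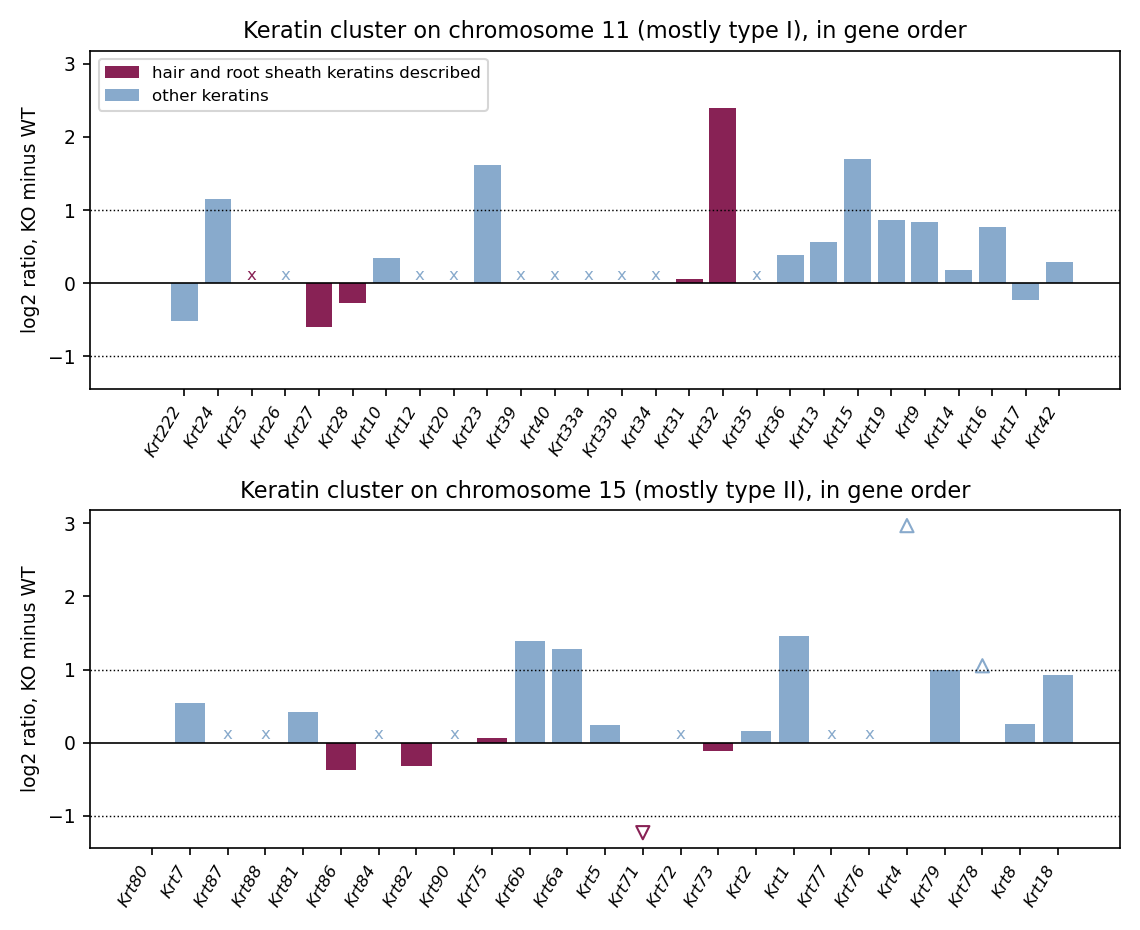
Log2 ratio of the keratin genes with a probe, in RefSeq gene order within the clusters of chromosome 11 (upper panel) and chromosome 15 (lower panel), with the 10 hair and root sheath keratins in dark red and other keratins in blue. *Krt85*, which has no entry among the RefSeq genes used for the order, is not drawn. Triangles are bounds, a cross marks a gene well above background on neither array, and the dotted lines mark 2-fold. *Krt32* is the tallest bar, and of its neighbours *Krt31* is near 0 and *Krt35* has no ratio.

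The stretch just upstream of the gene start was compared among the 10 genes, because *Krt32* and *Krt31* are adjacent and differed in their ratio. RefSeq promoter sequence of assembly GRCm38.p6 was found for 9 of them. The 250 bases before the start are printed for *Krt32*, at chr11:100088270-100088519, for its neighbour *Krt31*, at chr11:100050552-100050801, and for *Krt71*, at chr15:101743098-101743347, the keratin with the lower bound on the KO array. All 3 genes are on the minus strand, and the sequences read 5′ to 3′ along the gene. Capitals mark TATAAA, the TATA box, and CTTTGA, the core of the site of LEF and TCF factors.
Krt32 promoter: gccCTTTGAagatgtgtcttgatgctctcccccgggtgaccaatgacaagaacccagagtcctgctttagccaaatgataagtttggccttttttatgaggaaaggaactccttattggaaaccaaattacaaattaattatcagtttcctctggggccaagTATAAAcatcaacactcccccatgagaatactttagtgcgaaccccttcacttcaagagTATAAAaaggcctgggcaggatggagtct
Krt31 promoter: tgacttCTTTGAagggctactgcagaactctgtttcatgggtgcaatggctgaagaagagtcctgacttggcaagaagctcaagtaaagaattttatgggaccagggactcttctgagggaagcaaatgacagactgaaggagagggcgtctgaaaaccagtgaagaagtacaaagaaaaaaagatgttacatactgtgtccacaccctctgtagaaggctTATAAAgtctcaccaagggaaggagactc
Krt71 promoter: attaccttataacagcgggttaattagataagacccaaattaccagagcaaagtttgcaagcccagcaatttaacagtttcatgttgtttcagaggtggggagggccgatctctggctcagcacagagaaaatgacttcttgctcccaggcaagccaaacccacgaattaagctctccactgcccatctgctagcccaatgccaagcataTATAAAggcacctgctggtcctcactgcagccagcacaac

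CTTTGA and ACAAT, the core bound by SOX factors, were searched on both strands, as was TATAAA, and none of these motifs contains another. TATAAA was found in 7 of the 9 keratin promoters, each time on the gene's strand. On either strand, TATAAA was found in 12.4% of all 32851 RefSeq promoters of this length. It began 29 bases before the start in *Krt31*, which is also the place where it is most frequent over all promoters, and 30 bases before it in *Krt25*, *Krt28* and *Krt73*. *Krt32* had it at 29 and again at 88 bases, *Krt71* at 40 and *Krt27* at 15, and *Krt75* and *Krt82* did not hold it in this window. CTTTGA was found in 3 of the 9, *Krt32*, *Krt31* and *Krt28*, and in 13.8% of all promoters. It lay 247 bases before the start of *Krt32* and 244 before that of *Krt31*, which differed in their ratio. ACAAT was found in 2 of the 9, *Krt25* and *Krt73*, and in 27.7% of all promoters. These matches describe letters in a window and are not known sites.

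Other genes of the hair shaft and root sheaths were described as fixed lists. Of 15 further hair and root sheath keratins, 13 had a probe and 3 were measured on both arrays, while 10 were on neither. The 3 were hair shaft keratins, *Krt36* with a log2 ratio of 0.39 at its brighter probe and 0.11 at the other, *Krt81* with 0.42 and *Krt85* with 0.37, all under 2-fold. The probes of *Krt85* differed in brightness, with signals of 2910 and 3884 at one, 213 and 253 at another with a log2 ratio of 0.21, and one more not well above background. *Krt85* and *Krt81*, of type II like *Krt82* and *Krt86*, were thus higher on the KO array where these were lower. Adding these 3, of 7 hair shaft keratins measured *Krt32* was the one past 2-fold.

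The genes for proteins that harden the sheath and shaft had log2 ratios on both sides of 0. Of 7 such genes 6 were measured, 2 higher and 4 lower, 0 past 2-fold, with a median log2 ratio of -0.09 and a range from -0.50 to 0.57. Trichohyalin, *Tchh*, which binds inner root sheath keratins together, had 0.57, and *Padi3*, an enzyme that modifies trichohyalin, had -0.50. Of 51 genes for keratin-associated proteins, which embed the filaments of the shaft, 12 were measured, 5 higher and 7 lower, with log2 ratios from -0.32 to 0.48 and a median of -0.02 at the brightest probe of each. The lowest, *Krtap5-1*, had 0.58 at its other probe. *Krt32* therefore differed by more than any measured gene of these partner lists.

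Of 12 transcription factors of the hair follicle 9 were measured, 5 higher and 4 lower, with a median log2 ratio of 0.04. *Foxn1*, which is needed for hair shaft keratins and is lost in the nude mouse, was past 2-fold, with signals of 29.4 and 66.4 and a log2 ratio of 1.13. Like *Krt32*, it was dim on the wild-type array. *Hoxc13*, which also drives hair keratin genes, was well above background on neither array, and *Lef1* had log2 ratios of 0.04 and 0.25 at its 2 probes.

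Of 43 keratins outside the 10 with a probe 25 were measured, and 22 of these were higher and 3 lower, with a median log2 ratio of 0.54, where 52.4% of all genes measured were higher. The 8 hair and root sheath keratins had 3 higher and 5 lower. Past 2-fold on the higher side were 6 of the 25, *Krt15* at 1.70, *Krt23* at 1.61, *Krt1* at 1.45, *Krt6b* at 1.39, *Krt6a* at 1.28 and *Krt24* at 1.16, against 0.739% of all genes measured. *Krt4* and *Krt78*, well above background in *Sox21* KO alone, had bounds of 2.97 and 1.05 on the log2 scale. Over all 21245 genes, 2.12% were on the KO array alone and 0.268% had a higher bound of 2-fold or more. Whether these keratins and the 10 differ was not tested.

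Markers of the tissues that the incisor sample could hold were read beside these values. The ameloblast list, the enamel-forming cells, had 7 of 7 genes measured, with a summed normalized signal of 3162 in wild-type and 2866 in *Sox21* KO. The sum is mostly *Amelx* and *Ambn*, with log2 ratios of 0.08 and -0.23, whereas the median of the list was -0.62, with 5 of 7 lower. *Klk4* and *Amtn* were at least 2-fold lower, at -1.05 and -1.89, *Enam* and *Mmp20* had -0.65 and -0.62, and *Odam* went the other way at 0.63. Basal epithelial markers, 5 of 5 measured, summed to 555 and 650, mostly *Krt5*. Log2 ratios were 0.25 for *Krt5* at its brighter probe and 0.59 at the other, 0.18 for *Krt14*, 0.13 for *Epcam* and -0.09 for *Cdh1*. The 4 probes of *Trp63* disagreed, from -0.68 to 0.22. Of 9 markers of cornified skin 6 were measured, and the list summed to 8.99 and 17.6. In it *Krt1*, *Lor* and *Krtdap* were past 2-fold on the higher side in *Sox21* KO, at 1.45, 1.15 and 1.18, and *Flg*, on the KO array alone, was at least 5.18-fold higher. *Krt10* had 0.34 at its brighter probe and 1.84 at the other, *Krt2* had 0.16 and *Casp14* -0.25, and *Flg2* and *Ivl* were well above background on neither. Of 3 markers of oral mucosa, *Krt13* had 0.56 at its brighter probe and 1.94 at the other, *Krt4*, on the KO array alone, was at least 7.81-fold higher, and *Krt76* was on neither. Melanocyte markers, 3 of 4 measured and *Tyrp1* on neither array, summed to 2.49 and 3.71, mostly *Dct*, with log2 ratios of 0.61 for *Dct*, 0.44 for *Tyr* and -0.09 for *Pmel*. The odontoblast markers, 2 of 2 measured, summed to 113 and 114, mostly *Dspp*, with log2 ratios of -0.01 and 0.28 at its 2 probes, while *Dmp1* had 0.93. Those cornified skin and oral mucosa markers that were past 2-fold or given by a bound were thus higher on the array where *Krt32* was higher, and the others were on neither array or within 2-fold at their brightest probe, with the dimmer probes of *Krt10* and *Krt13* past it. The inner root sheath keratins with a ratio or bound were lower on that array, and the part of skin or mucosa in the *Krt32* value was not tested.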

How the data were processed

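RNA of incisors of 1 wild-type and 1 *Sox21* KO sample was labelled with 1 dye and hybridized by the authors to Agilent SurePrint G3 Mouse GE arrays. The authors deposited, for each of the 62976 spots, a processed signal intensity from Agilent Feature Extraction 10.7.3.1, with background removed, its error, the raw mean and local background intensities, and marks for outliers, saturation and signal above background. A second deposited table holds linear ratios, each processed signal divided by 1 number per array, which lies at the 75th percentile over all spots. The methods name a percentile shift and the removal of very low signals, and give a value for neither. Precision is limited by there being 2 arrays.

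Here each processed signal was divided by the 75th percentile of its array over all spots. Left out were 267 spots marked as outliers, none of them of the 10 keratins, leaving 55679 probes. Symbols came from RefSeq genes of GRCm38.p6, by accession for 26298 probes, by symbol for 2044 and by an older symbol for 355, while 26979 kept the name in the file and 3 probes of *Krt85*, which the table does not list, were admitted by that name. Probe coordinates are mm9, as in the files, and promoter coordinates are GRCm38.p6. A gene with several probes took the brightest that was well above background on both arrays. A gene well above background on 1 array alone got a bound, the brighter normalized signal over the larger of the dimmer one and the lowest signal well above background on that array. Scanner errors were carried to the log2 ratio as independent relative errors. With 1 array per genotype no test was run and no p-value is given.

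Named are the 10 keratins with every probe, *Sox21*, genes of the lists at least 2-fold apart or given by a bound of that size, and defining markers of each cell type list. *Krt81*, *Krt85*, *Krt36*, *Krt35*, *Krt72*, *Krt10*, *Tchh*, *Padi3*, *Hoxc13*, *Lef1* and *Krtap5-1* were named after their values were seen. The keratins and all lists were chosen with earlier results of these data known. Probes were compared with the other probe sequences of the array in place of a planned comparison with proteins. Alternatives covered the scaling, background, filter, outliers, probe choice, value table and threshold. For the comparison of KO with wild-type the calculation was tested on simulated data, in which 200 genes well above background in wild-type were changed 4-fold. Of these, 178 were among the 14056 genes measured on both simulated arrays and 178 were recovered, with 0 unchanged genes called. Both simulated arrays were made from the wild-type signals with the same small noise at every brightness. The result thus checks the calculation and does not measure error rates in the real arrays. Python 3.11.15, numpy 2.4.6, pandas 2.3.3, matplotlib 3.10.9, R 4.3.3 and limma 3.58.1 were used.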

Additional observations from a re-analysis of the deposited data

How the results depend on the processing

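Of 11 alternatives, those of the filter, the outliers, the probe choice, the value table and the threshold could not or did not move the ratio of a measured keratin with 1 probe. Under the other 5, of scaling and background, each of the 8 measured keratins kept its direction, and *Krt32* was the one past 2-fold higher in each, with a log2 ratio between 1.17 and 2.49. *Krt31* came down to 0.00 after normexp. The bound of *Krt71* lay under 2-fold after normexp and with no background removed, at -0.54 and -0.72 in log2, in place of -1.23. The number lower by 2-fold became 1 under the weaker mark of positive and significant and with no requirement on background, where *Krt71* had a log2 ratio of -1.42, and 1 at a 1.5-fold threshold, by *Krt27*. Scaling by the median in place of the 75th percentile moved the median of all genes from 0.01 to 0.11, that of the 8 keratins to -0.10 and that of the other hair and root sheath keratins from 0.39 to 0.48, and split the genes past 2-fold into 135 higher and 63 lower, in place of 102 and 92. The other hair and root sheath keratins had a median of 0.29 as a mean over probes and of -0.13 with no requirement on background, where 13 of them entered in place of 3, and 7 entered under the weaker mark. Over all genes, those past 2-fold higher and lower numbered 46 and 40 after normexp, 53 and 49 with no background removed, 293 and 321 under the weaker mark, 508 and 695 with no requirement on background, and 441 and 412 at 1.5-fold. More genes entered the count under the weaker mark and with no requirement on background, and a lower threshold takes in more genes by itself. Background left in and the constant added in normexp draw ratios toward 0. What else moved these counts was not tested. No paired analysis was possible because each genotype has 1 array, and for the same reason no array could be left out. Signal over background limits *Krt25*, *Krt71*, the dimmer *Krt28* probe and the wild-type value of *Krt32*.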
